A study of Mus musculus with 4 samples.

Results

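The 9 homeostatic microglia genes described here are Cx3cr1, P2ry12, P2ry13, Tmem119, Csf1r, Sall1, Siglech, Gpr34 and Fcrls. They were matched by gene symbol, and all 9 were found among 22173 genes listed and 19388 with values. RNA was sequenced from hippocampus of C57BL/6 mice, 2 samples after phosphate-buffered saline (PBS) and 2 after (+)-Sodium L-ascorbate, the sodium salt of vitamin C. The series describes 30 days of treatment and, in its title, middle-aged mice, and the labels give no age per sample and do not say whether each sample came from 1 animal or from a pool. The series title links ascorbic acid to cognition and to immune cells, so the question asked of these genes is whether hippocampal microglial transcripts differed between the treatments. Values are FPKM, fragments per kilobase of transcript, scaled to the mapped fragments of the library, which can be compared between genes because they are scaled by length. Where 2 values stand for a treatment, sample 1 comes first and sample 2 second.

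Microglia are the resident macrophages of the brain. In the undisturbed brain they depend on signals from neighbouring neurons and glia, such as CSF1 receptor ligands and TGF-beta, and hold a set of genes that sets them apart from blood monocytes and from the macrophages of the brain's borders. In mouse models of injury and disease, many of these genes are known to go down as microglia take up other states, which is why they are called homeostatic.

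In bulk tissue these genes give a readout of microglia as a whole, in which fewer cells and less RNA per cell cannot be told apart. All 9 were above 4 FPKM in every sample. They summed to 98.4 and 100.2 FPKM under PBS, and to 90.2 and 100.05 FPKM under ascorbate. PBS and ascorbate overlapped in this sum, with ascorbate sample 1 the lowest of the 4. None of the 9 genes passed the threshold, an adjusted p of 0.05 in limma-trend on log2(FPKM + 1), where 0 of 13372 tested genes (0%) passed. An unadjusted p under 0.05 was reached by 0 members, and by 377 tested genes (2.82%), 364 of them lower (2.72%) and 13 higher (0.0972%) with ascorbate. Under 2 of 15 alternatives Gpr34 also reached it in limma-trend, with an unadjusted p of 0.0417 without the filter on low values and 0.0124 with the replicate number as a block. All 9 had the same adjusted p of 0.9998, and the 95% interval of each difference contained 0. An exact 2-sided permutation test of 2 samples against 2 cannot give a p below 0.333.

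The 4 samples did not hold the same mix of tissue. The summed level of 16 choroid plexus genes was 9718 and 8982 FPKM under PBS against 228 and 60.2 FPKM under ascorbate, and that of 17 meningeal genes was 351 and 361 against 74.6 and 55.1 FPKM. The sum of 12 endothelial and mural cell genes was 128 and 138 against 63.8 and 74.7 FPKM, and all 10 that were tested had a negative difference. The sum of 12 thalamic neuron genes followed the replicate number instead, at 445 and 555 FPKM in the samples numbered 1 and 60.3 and 47.2 FPKM in those numbered 2. That of 12 hippocampal neuron genes was 151 and 181 FPKM against 373 and 387 FPKM. Oligodendrocyte genes summed to 3873 and 3767 FPKM in the samples numbered 1 and 2055 and 1655 FPKM in those numbered 2, and ependymal genes were lowest in ascorbate sample 2, at 12.4 FPKM against 67.2 to 125 FPKM in the others. T cell genes summed to between 1.41 and 1.60 FPKM in all 4 samples, with Cd3e at 0 in PBS sample 1 and ascorbate sample 2. The 15 monocyte and neutrophil genes summed to 46.7 and 73.8 FPKM under PBS against 22.2 and 32.0 FPKM under ascorbate. The most abundant of them, Ace, was 30.0 and 38.5 against 4.36 and 1.60 FPKM, and the lower sum rests largely on it. Of the 4 tested genes of this list, Ace was the only one whose groups did not overlap. Which cells the Ace values come from was not tested. The defining monocyte gene Ccr2 lay between 0.13 and 0.23 FPKM in all 4 samples. The part of these differences in tissue in the values of the microglia genes was not tested. Differences are also given between the samples of the same number, which does not even out the tissues that differed by treatment. Within numbers 1 and 2 the median log2 difference was -3.24 and -3.84 for choroid plexus genes. It was -1.40 and -1.70 for meningeal genes, and -0.30 and -0.35 for endothelial and mural cell genes.

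The promoters of 3 members on chromosome 3 are printed because P2ry12 and P2ry13 are neighbouring genes whose values are set side by side in what follows, and because Fcrls had the most even values of the 9. Each line holds the 250 bases before the start used in a RefSeq promoter table, on the minus strand of GRCm38.p6, at chr3:59262986-59263235 for P2ry12, chr3:59210883-59211132 for P2ry13 and chr3:87263525-87263774 for Fcrls, with capitals marking GAGGAA or AGGAAG and their reverse complements. Both are core letters of sites bound by ETS factors such as PU.1, the lineage factor of macrophages, and they overlap where GAGGAAG occurs.
P2ry12: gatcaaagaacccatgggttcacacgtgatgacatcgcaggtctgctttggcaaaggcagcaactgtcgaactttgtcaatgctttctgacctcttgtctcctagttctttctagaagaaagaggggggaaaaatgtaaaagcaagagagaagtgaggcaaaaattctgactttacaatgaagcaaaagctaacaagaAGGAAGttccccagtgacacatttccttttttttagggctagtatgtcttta
P2ry13: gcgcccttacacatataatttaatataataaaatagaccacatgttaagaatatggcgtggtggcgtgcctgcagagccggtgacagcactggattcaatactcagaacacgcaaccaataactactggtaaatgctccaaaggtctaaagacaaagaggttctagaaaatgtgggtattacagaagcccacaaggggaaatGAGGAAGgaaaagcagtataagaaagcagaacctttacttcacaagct
Fcrls: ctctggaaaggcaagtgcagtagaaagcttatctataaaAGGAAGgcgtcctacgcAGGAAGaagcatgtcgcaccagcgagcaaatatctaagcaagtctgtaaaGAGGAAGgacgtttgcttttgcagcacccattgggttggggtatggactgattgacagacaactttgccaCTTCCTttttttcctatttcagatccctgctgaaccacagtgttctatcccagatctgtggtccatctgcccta
The P2ry12 and P2ry13 windows lie wholly before the annotated gene, whereas 241 bases of the Fcrls window lie within the annotated span of Fcrls and 9 before it. P2ry12 held AGGAAG 1 time, P2ry13 held AGGAAG 1 time within GAGGAAG, and Fcrls held AGGAAG or its complement 4 times and GAGGAA 1 time. Of 32851 RefSeq windows of the same length, 29.5% held AGGAAG, 23.3% held GAGGAA and 39.2% held at least 1 of them on either strand. Promoter windows of 6 of the 9 members (Cx3cr1, P2ry12, P2ry13, Fcrls, Siglech and Sall1) were counted, 8 windows in all. Whether the other members have a promoter entry is not reported here. At least 1 of the strings occurred in 4 of the 8 windows, 1 each of Fcrls, P2ry12, P2ry13 and Sall1, and in none of the others. The composite of PU.1 and IRF sites (in 0.594% of all windows) and the SMAD palindrome (GTCTAGAC, in 0.167%) occurred in none of the 6.

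Ordered by mean level, Csf1r was the most abundant member, with 18.6 to 22.3 FPKM over the 4 samples. P2ry12, Gpr34, Tmem119, Cx3cr1 and Siglech came next, Fcrls followed, and Sall1 and P2ry13 were the least abundant at 4.14 to 5.52 FPKM. The ranges over 4 samples did not overlap between Csf1r and P2ry12, between Siglech and Fcrls or between Fcrls and Sall1. All other neighbours in this order overlapped, so their order is not resolved.

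**Figure D1:**
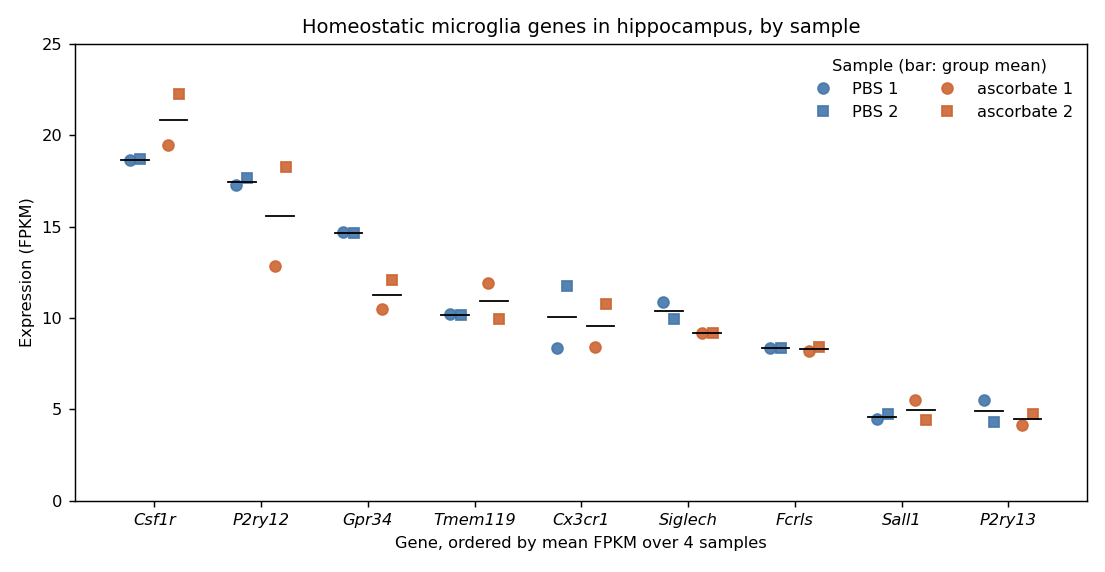
FPKM of each of the 9 homeostatic microglia genes (horizontal axis, ordered by mean) in the 4 samples, with circles for samples numbered 1, squares for samples numbered 2 and bars for group means. Gpr34 and Siglech lie lower and Csf1r higher under ascorbate without overlap, and the other 6 genes overlap.

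Gpr34 showed the largest difference among the members. It encodes a G protein-coupled receptor for lysophosphatidylserine and lies on chromosome X, 13622650 to 13640859 (GRCm38). Its level was 14.69 and 14.65 FPKM under PBS against 10.5 and 12.1 FPKM under ascorbate. Both ascorbate samples were below both PBS samples, which lay 0.04 FPKM apart. Group means were 14.67 ± 0.0283 and 11.3 ± 1.12 FPKM (SD, n = 2 each), a 1.30-fold lower mean with ascorbate. The log2 difference of -0.36 (SE 0.14, 95% interval -0.74 to 0.031) had an unadjusted p of 0.0636 in limma-trend and ranked 449 of 13372 genes. Within numbers 1 and 2 it was -0.45 and -0.26. Gpr34 lies within the span of Cask on the opposite strand but shares no exon base with it, and Cask was at 8.58 and 7.51 FPKM under PBS against 8.82 and 7.45 FPKM under ascorbate.

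Csf1r differed in the other direction. It encodes the receptor tyrosine kinase for CSF1 and IL-34, on which microglial survival depends, and lies on chromosome 18, 61105572 to 61131139. Its level was 18.64 and 18.68 FPKM in PBS samples 1 and 2 and 19.45 and 22.3 FPKM in ascorbate samples 1 and 2. Both ascorbate samples were above both PBS samples, ascorbate sample 1 by a small margin. The log2 difference was 0.15 (SE 0.14, 95% interval -0.24 to 0.54, unadjusted p = 0.351 in limma-trend), and 0.058 and 0.24 within numbers 1 and 2. The value is uncertain because Csf1r shares 873 exon bases with Hmgxb3 on the opposite strand and the strand setting of the counting is not given. Hmgxb3 was at 8.11 and 9.18 FPKM under PBS against 10.2 and 10.5 FPKM under ascorbate.

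As the members at the ends of the range, Gpr34 and Csf1r were set against each other within each sample, a choice made after their values had been seen. The ratio of Csf1r to Gpr34 was 1.27 and 1.28 under PBS against 1.86 and 1.85 under ascorbate. The treatments could not overlap in it, because each gene alone did not overlap and the 2 differed in opposite directions. Of 36 ratios between members, 14 did not overlap, 7 of them with Gpr34. The uncertainty of the Csf1r value also holds for this ratio. A ratio within a sample does not depend on the scaling of its library. It is given as a description, without a test.

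The receptors for nucleotides and for fractalkine overlapped between the groups. P2ry12, the ADP receptor that guides microglial processes to sites of damage (chromosome 3, 59216271 to 59262985), was 17.3 and 17.7 FPKM under PBS against 12.9 and 18.3 FPKM under ascorbate in samples 1 and 2. Ascorbate sample 1 alone was low. P2ry13 (chromosome 3, 59207892 to 59210882), a second ADP receptor, was 5.50 and 4.30 FPKM under PBS against 4.14 and 4.77 FPKM under ascorbate. The log2 differences were -0.18 for P2ry12 (SE 0.21, 95% interval -0.73 to 0.38) and -0.11 for P2ry13 (SE 0.18, 95% interval -0.61 to 0.39).

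Both purinergic receptors had a negative difference between the samples numbered 1 (-0.40 and -0.34) and a positive one between those numbered 2 (0.044 and 0.12). P2ry14 and Med12l at this locus had the same signs, with groups that overlapped. Of all tested genes, 32.5% were lower and 23.9% higher within both numbers. The share with these opposite signs was not counted, so no effect of the locus is read from this. P2ry14, the UDP-glucose receptor gene, was 1.70 and 1.06 FPKM under PBS against 0.94 and 1.44 FPKM under ascorbate. Med12l, a Mediator subunit gene whose span holds P2ry12 and P2ry13 on the opposite strand, was 8.56 and 6.88 against 7.11 and 8.28 FPKM. Med12l shares 9 exon bases with P2ry12 and none with P2ry13.

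Cx3cr1, the receptor for the neuronal chemokine fractalkine (chromosome 9, 120048683 to 120068296), was 8.38 and 11.8 FPKM under PBS against 8.41 and 10.8 FPKM under ascorbate. Its values separated by replicate number rather than by treatment. It was lower in both samples numbered 1, by 0.44 on the log2 scale with PBS and 0.32 with ascorbate. Between treatments the log2 difference was -0.057 (SE 0.23, 95% interval -0.67 to 0.56), and within numbers 1 and 2 it was 0.0046 and -0.12.

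Of the surface lectin and scavenger receptor genes, Siglech was slightly lower with ascorbate and Fcrls was level. Siglech, a sialic acid-binding lectin gene that among brain cells marks microglia (chromosome 7, 55768154 to 55779448), was 10.9 and 9.93 FPKM under PBS against 9.19 and 9.17 FPKM under ascorbate. The groups did not overlap, and the log2 difference was -0.16 (SE 0.14, 95% interval -0.53 to 0.21, unadjusted p = 0.299 in limma-trend). Fcrls, an Fc receptor-like scavenger receptor gene (chromosome 3, 87250736 to 87263765), was 8.38 and 8.36 FPKM under PBS against 8.19 and 8.39 FPKM under ascorbate. Its 4 values spanned 1.02-fold, with a coefficient of variation of 1.13% against a median of 14.7% over all tested genes. The log2 difference was -0.012 (95% interval -0.37 to 0.35), or 0.041 after rescaling to TPM.

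Tmem119 and Sall1 had their highest and lowest values in the same samples. Tmem119, a transmembrane protein gene used to tell microglia from other brain macrophages (chromosome 5, 113793729 to 113800396), was 10.2 and 10.15 FPKM under PBS against 11.9 and 9.97 FPKM under ascorbate. Sall1, a zinc finger transcription factor gene needed for microglial identity in mice (chromosome 8, 89027242 to 89044162), was 4.46 and 4.73 FPKM under PBS against 5.52 and 4.41 FPKM under ascorbate. In both, ascorbate sample 1 was the highest and ascorbate sample 2 the lowest of the 4 samples, whereas the order of the PBS samples differed. This was seen after the fact, and the share of all tested genes with the same extremes was not counted. The log2 differences were 0.090 (SE 0.15, 95% interval -0.32 to 0.50) and 0.087 (SE 0.17, 95% interval -0.38 to 0.55). Within numbers 1 and 2 they were 0.20 and -0.023 for Tmem119 and 0.26 and -0.083 for Sall1.

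**Figure D2:**
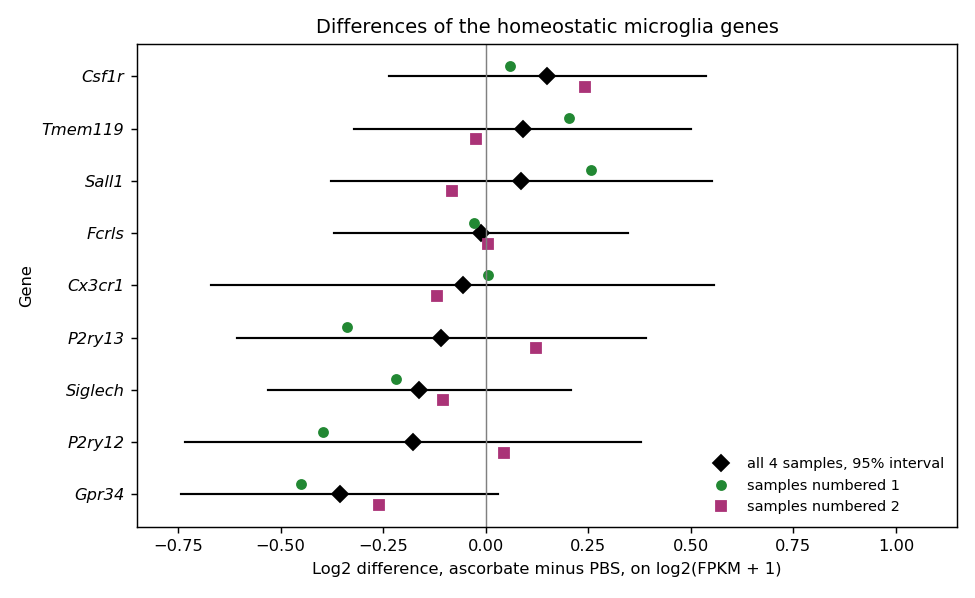
Log2 difference on log2(FPKM + 1), ascorbate minus PBS, for each of the 9 genes (vertical axis), with diamonds and 95% intervals from limma-trend over 4 samples, circles for the samples numbered 1 and squares for those numbered 2. Every interval contains 0, from Gpr34 at -0.36 to Csf1r at 0.15.

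Across the 9 members, 6 had a negative and 3 a positive difference, where 54.2% of all tested genes were negative, with a median log2 difference of -0.057 against -0.018 over all tested genes. Within numbers 1 and 2 the median was -0.030 and -0.023. Leaving out ascorbate sample 2 moved it to -0.16 and leaving out PBS sample 1 moved it to -0.011. The ascorbate values were both under the PBS values for 2 members (Gpr34 and Siglech), as for 14.4% of all tested genes, and both over them for 1 member (Csf1r), as for 8.65%. Within both replicate numbers alike, 2 members were lower, as were 32.5% of tested genes, and 1 was higher, as were 23.9%. These counts are close to the background. The median absolute difference of the members was 0.11 on the log2 scale, the same as the 0.11 over all tested genes.

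Replicate number, the other division of the 4 samples, separated 3 members. Both samples numbered 2 lay above both numbered 1 for Cx3cr1 and P2ry12, 2 of 9 members against 22.6% of tested genes, and below them for Tmem119, 1 of 9 against 38.5%. The median absolute difference between the numbers was 0.094 on the log2 scale for the members, 0.22 for all tested genes, 0.86 for 12 hippocampal neuron genes and 2.93 for 12 thalamic neuron genes. Whether the members differ from other genes in this was not tested, and the meaning of the numbers is not given in the labels.

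**Figure D3:**
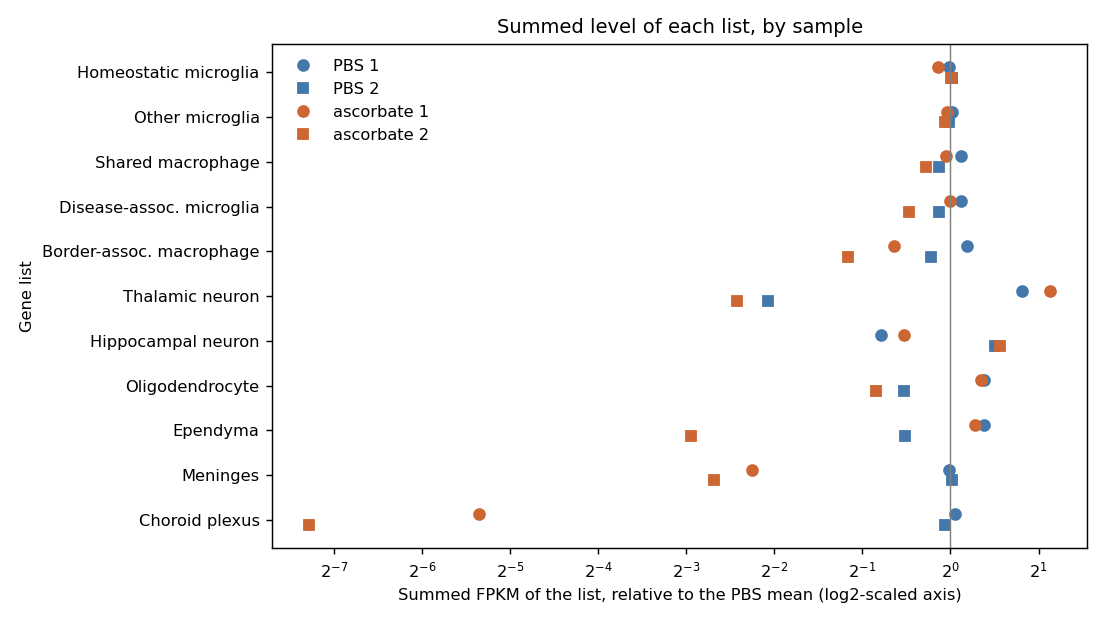
Summed FPKM of each gene list in each sample, divided by the mean of the PBS samples (log2-scaled horizontal axis), with circles for samples numbered 1 and squares for samples numbered 2. The 9 homeostatic microglia genes stay within 90.2 to 100.2 FPKM, while choroid plexus and meningeal sums separate by treatment and thalamic and hippocampal neuron sums by replicate number.

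Of 25 other genes enriched in microglia, 13 had a negative and 12 a positive difference, with a median of -0.026 on the log2 scale, and 0 passed the adjusted threshold. Their summed level was 262 and 255 FPKM under PBS against 251 and 248 FPKM under ascorbate. Whether their values in this bulk tissue come from microglia alone was not tested, which also limits their use as a reference below.

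Ltc4s, the leukotriene C4 synthase gene, stood apart from the rest of that list. It was 11.8 and 8.85 FPKM under PBS against 2.50 and 2.98 FPKM under ascorbate, which is -1.59 on the log2 scale (SE 0.20, adjusted p = 0.246 by limma-trend). The secreted glycoprotein Olfml3 and the UDP receptor P2ry6 were also among the 4 with the smallest p-values, each with a log2 difference of -0.26 and groups that did not overlap. Choroid plexus, meningeal and endothelial sums were lower in the same samples, and their part in these values was not tested.

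Genes that microglia share with other macrophages had a median log2 difference of -0.18, with 17 of 25 negative, against 54.2% of all tested genes, and 0 past the threshold. Choroid plexus, meningeal and endothelial sums were lower in the same samples, and their part in this was not tested. The tetraspanin Cd53 was 4.67 and 4.22 FPKM under PBS against 2.83 and 3.69 FPKM under ascorbate. The complement chain C1qc was 53.5 and 44.6 against 43.9 and 37.2 FPKM, the GDP dissociation inhibitor Arhgdib (sharing 136 exon bases with Pde6h) had a difference of -0.25 and the kinase Lyn one of -0.24. The protease Ctss, the most abundant of this list, was 80.7 and 61.3 against 66.6 and 51.8 FPKM, and its groups overlapped. Relative to the median of these shared genes in the same sample, the level of the 9 members differed between treatments by a median log2 of 0.0098. This depends on the reference: the median level of the shared genes differed by -0.066, less than the median of their differences. Relative to other microglia genes the value was 0.089. The median level of those genes differed by -0.145, more than the median of their differences, which was -0.026. By member, the value relative to the shared genes ran from -0.29 for Gpr34 to 0.22 for Csf1r.

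**Figure D4:**
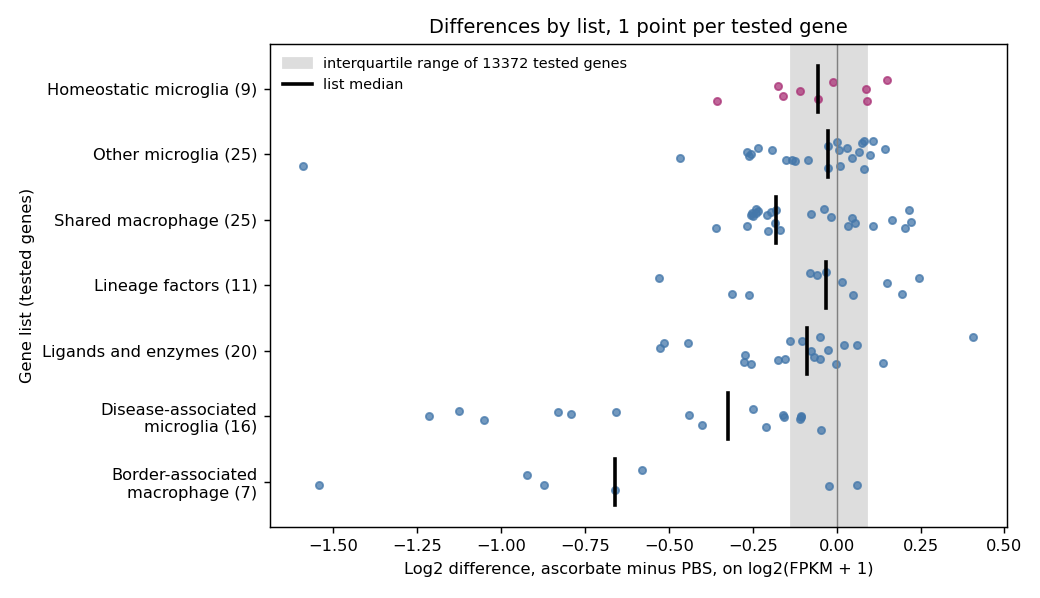
Log2 difference on log2(FPKM + 1), ascorbate minus PBS (horizontal axis), of each tested gene of 7 lists, with black bars for list medians and a grey band for the interquartile range of all 13372 tested genes. The homeostatic genes centre on -0.057, disease-associated microglia genes on -0.33 and border-associated macrophage genes on -0.66.

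Of 20 tested genes of signalling around the member receptors, 16 had a negative difference, against 54.2% of all tested genes. The median log2 difference was -0.090, with 0 past the threshold. The list holds ligands, co-receptors and nucleotide enzymes, and also other nucleotide receptors, proteases and a G protein gene, so it is not confined to upstream signals. Fractalkine (Cx3cl1), the ligand of Cx3cr1, was 65.8 and 97.5 FPKM under PBS against 101 and 112 FPKM under ascorbate. Both ascorbate samples were above both PBS samples, and the log2 difference was 0.41 (SE 0.25, 95% interval -0.26 to 1.07, unadjusted p = 0.167 in limma-trend). Of the Csf1r ligands, Il34 was 12.5 and 20.3 against 11.8 and 21.4 FPKM and separated by replicate number. Csf1 was 7.80 and 7.49 against 7.72 and 5.73 FPKM, low in ascorbate sample 2.

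Tgfb1, which maintains the homeostatic programme, was 1.87 and 1.68 against 1.73 and 0.98 FPKM, and Tgfb2 and Tgfbr2 had log2 differences of -0.51 and -0.44 with overlapping groups. Entpd1, which breaks down ATP and also ADP, the nucleotide that P2ry12 senses, was 3.69 and 3.67 against 3.57 and 3.62 FPKM. Its groups did not overlap although they lay 0.026 apart on the log2 scale. Nt5e, the next enzyme in that pathway, was 2.35 and 1.64 against 1.41 and 0.77 FPKM, a log2 difference of -0.53 (SE 0.27).

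Of 11 tested transcription factor genes of the lineage, 6 had a negative and 5 a positive difference, with a median log2 of -0.032 and 0 past the threshold. Spi1, which encodes PU.1, was 1.87 and 1.97 FPKM under PBS against 1.54 and 1.18 FPKM under ascorbate, and its partner Irf8 was 2.66 and 2.48 against 1.95 and 2.01 FPKM. Both were lower in both ascorbate samples, with unadjusted p = 0.185 and 0.197 in limma-trend. Cebpa was higher in both, by 0.25 on the log2 scale. Tal1 (-0.53) and Mef2a (0.15, the most abundant) overlapped between the groups, and Mef2a shares 302 exon bases with Lysmd4. Mef2a was 31.0 and 40.5 FPKM under PBS against 35.3 and 44.0 FPKM under ascorbate, higher in both samples numbered 2. Which cells the values of these factor genes come from was not tested.

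Disease-associated microglia genes are those known to go up in mouse models as homeostatic genes go down. All 16 tested genes of 22 had a negative difference, with a median log2 of -0.33, where 54.2% of all tested genes were negative, and 0 passed the threshold. The rest fell below the filter. Of these, Cst7 was 0.24 and 0.06 FPKM under PBS against 0.24 and 0.25 FPKM under ascorbate. Itgax was 0.27 and 0.07 against 0.26 and 0.05 FPKM. Ccl3 and Ccl4 also overlapped between the groups, while Clec7a and Ch25h were lower in both ascorbate samples. Lysozyme (Lyz2) was 31.9 and 17.7 FPKM under PBS against 14.1 and 7.57 FPKM under ascorbate, uncertain because of the near-identical Lyz1. The lysosomal genes Cd63 and Ctsd and the galectin Lgals3 had log2 differences of -1.05, -0.66 and -0.79, with groups that did not overlap. Ferritin heavy chain (Fth1), the most abundant, was 1794 and 1521 against 1733 and 1350 FPKM and overlapped. Several of these genes are not specific to microglia, and choroid plexus, meningeal and endothelial sums were lower in the same samples, so which cells the values come from was not tested.

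Border-associated macrophages, the macrophages of meninges, choroid plexus and vessels, share Csf1r and Cx3cr1 with microglia, while Tmem119, Sall1 and Siglech are low or absent in them. Their 19 listed genes summed to 40.2 and 30.3 FPKM under PBS against 22.6 and 15.8 FPKM under ascorbate. Of these, 3 (Ccl8, Cd209f and Mgl2) were at 0 in ascorbate sample 2, with low PBS values of 0.50 to 1.49 FPKM. Pf4, Clec10a and Ccl24 were highest in ascorbate sample 1 instead. Of the 7 that were tested, 6 had a negative difference, against 54.2% of all tested genes, and Cd38 a positive one (0.060). The median log2 difference was -0.66, and 0 passed the threshold. Dab2, an endocytic adaptor and the most abundant, was 10.3 and 7.15 against 4.15 and 1.10 FPKM. The folate receptor gene Folr2 was 1.76 and 1.72 against 0.32 and 0.58 FPKM, and Cbr2 and Maf had log2 differences of -0.87 and -0.66. Choroid plexus, meningeal and endothelial sums were lower in the same samples, and neither their part in these values nor the difference of these medians from that of the homeostatic genes was tested.

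The 5 genes closest to the members in sample pattern were Zfp414, Ccdc127, Fkbp15, Ppp6r3 and Mapk8. Closeness was the Euclidean distance over the 4 samples between centred log2(FPKM + 1) values and the mean centred values of the 9 members, among 9924 genes of at least 5 FPKM. The mean values of the members were 0.023, 0.037, -0.078 and 0.017 in PBS samples 1 and 2 and ascorbate samples 1 and 2, a nearly flat pattern with a small dip in ascorbate sample 1. Of the members, Fcrls was the closest, at the 1.58 percentile of distance, and Cx3cr1 the farthest, at the 52.9 percentile, with Sall1 and P2ry13 unranked below 5 FPKM. The value of Ccdc127 is uncertain because its exons overlap those of Lrrc14b.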

How the data were processed

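Polyadenylated RNA was sequenced from 4 hippocampus samples. The authors deposited FPKM for 1 library per file, to 2 decimals, per the file headers. HISAT2, Bowtie2, RSEM and DESeq2 with GRCm38 are named, per the submitters' processing notes, with no role or order. The annotation release and strand setting are not given in the sources used here. FPKM sums were 391142 and 372683 with PBS and 386956 and 348133 with ascorbate. Read depth is unknown, so no counting error is given.

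Genes averaging 1 FPKM or more (13372) were log2-transformed after adding 1 and tested by limma-trend in limma 3.58.1 under R 4.3.3, with 2 residual and 2.33 prior degrees of freedom and Benjamini-Hochberg adjustment. The fit was also run on simulated data whose samples varied independently. Same-numbered samples deviated together in the real data, so that run does not cover this feature. All members passed this filter. Whether replicates are different animals is not in the labels, and p-values measure only the spread between these samples.

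The members and lists were chosen with earlier results of these data known. Genes named besides the members are the 4 with the smallest p and the most abundant of each microglial list, direct ligands, Entpd1, overlapping or paralogous genes, and the 5 nearest in pattern. Some genes the rule names, and 1 alternative that needs such a gene, are not reported here. Some markers of other lists (Cd3e and Ccr2, and Ccl8, Cd209f, Mgl2, Pf4, Clec10a, Ccl24 and Cd38) and Hmgxb3 were named after their values were seen. So were the untested disease-associated microglia genes (Cst7, Itgax, Ccl3, Ccl4, Clec7a and Ch25h). Positions and promoters are RefSeq entries of GRCm38.p6, in which all 9 gene IDs matched. Transcripts of 46 named genes were compared with GENCODE M21 by BLAST 2.17.0 (at least 95% identity over 200 bases): 6 share exon bases with, and 5 resemble, another gene of the files.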

Additional observations from a re-analysis of the deposited data

How the results depend on the processing

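Over 15 alternatives, no member passed the adjusted threshold, and Gpr34, Siglech and Csf1r kept their signs. Of 133 member values, 122 kept their sign. Many of these could not have turned. Changing the filter on low values or the variance settings, or adding the replicate block, left each estimate as it was. Leaving out a sample could not turn the sign of Gpr34, Siglech or Csf1r, because their groups did not overlap. The count of kept signs is therefore not a measure of robustness. Fcrls was 0.041 as TPM, 0.035 with median-of-ratios scaling, 0.033 after quantile normalization and 0.0061 after rescaling without genes of the choroid plexus, meninges and erythrocyte lists. The median of the members was -0.0046 as TPM and -0.0088 with median-of-ratios scaling. The median of the members was 0.0098 relative to shared macrophage genes, and 0.089 with other microglia genes as the reference instead.

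With each sample left out in turn, its group has 1 sample, assumed to vary like the others. The median of the members then ranged from -0.16 to -0.011 and the relative median from -0.038 to 0.072. The ranges were -0.28 to 0.17 for Cx3cr1 (positive without PBS sample 2 or ascorbate sample 1), -0.41 to 0.061 for P2ry12, -0.027 to 0.21 for Tmem119, -0.048 to 0.22 for Sall1 and -0.028 to 0.0031 for Fcrls (the sign turned without ascorbate sample 1 in each), and -0.26 to 0.039 for P2ry13 (positive without PBS sample 1). In every such fit 0 genes passed.

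With the replicate number as a block, 485 genes passed instead of 0, no member among them, and Gpr34 had the smallest adjusted p of the members, 0.189 in limma-trend. Same-numbered samples deviated together (correlation 0.77 over tested genes), but the labels give the number no meaning and only 2 pairs exist. That fit leaves 1 residual degree of freedom. The samples numbered 1 and those numbered 2 alone were added after the data had been seen. The causes were not tested.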
